A study of Mus musculus with 25 samples.

Results

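Liver of wild-type mice aged 12 months was set against liver of wild-type mice aged 2 months, to ask how the mRNA content of the liver differs between these ages in mice that keep Mcl-1. The 5 arrays were chosen by their labels alone, 3 at 12 months (animals 552, 641 and 1110) and 2 at 2 months (animals 31 and 34), out of 25 arrays in the study. Each array carried Cy3-labelled RNA of the whole liver of 1 untreated animal. The study compared littermates with a deletion of Mcl-1, which keeps cells alive as an anti-apoptotic relative of BCL-2, in hepatocytes alone. For orientation the values of other groups are given beside those of the wild-type mice: Mcl-1 hemizygous mice of 2 months (n = 3), and non-tumor liver of Mcl-1 ko mice of 2 months (n = 3), 8 months (n = 3) and 12 months (n = 4). Tumors of the older ko mice were left out of the main model. They appear below only beside a set of dim genes and in a fit with all 25 arrays. The strain, the sex of the mice, the driver of the deletion, the alleles that the wild-type mice carry and the hour of collection are not given in the sources used here.

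The adult liver changes with age in several known ways. Hepatocytes tend to store more triglyceride in lipid droplets, immune cells gather around the portal tracts, and division of hepatocytes, which still occurs in the growing young liver, becomes rare. Many liver genes also follow the time of day through the circadian clock, in which BMAL1 and CLOCK switch on the genes of their own repressors, and many follow sex through the pattern of growth hormone release.

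A level below is the log2 of the background-subtracted array signal minus the 75th percentile of its array. A change is the level at 12 months minus that at 2 months. Changes were tested with limma over 26379 genes in a model of 18 arrays in 6 groups, and a gene passed when its p, adjusted over all genes by Benjamini and Hochberg, was under 0.05. The p values measure the spread between single animals within the 6 groups, pooled over wild-type, hemizygous and ko liver. They do not measure the spread of the 3 and 2 wild-type arrays alone. In bulk liver, fewer cells of a type and less RNA per cell cannot be told apart.

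Several properties of the 5 arrays bear on every result. Mcl1 itself (chromosome 3, 95656944 to 95663179 in GRCm38.p6) had levels of 4.47, 3.88 and 4.50 at 12 months and 4.02 and 4.50 at 2 months. Its change was 0.02 (SE 0.37, adjusted p = 0.987), against levels of 1.82 ± 0.28 (SD, n = 3) in ko and 3.34 ± 0.21 (SD, n = 3) in hemizygous liver of 2 months, so all 5 wild-type arrays lay above the ko and hemizygous means of 2 months. Between 60.2% and 84.8% of probes were well above background, with animal 641 at 84.8% and the other 4 at 60.2% to 63.1%. Dim probes were brighter on that array: the 25th percentile of its probe levels was -4.43, against -7.39 and -7.28 on the other arrays of 12 months and -6.40 and -6.67 on those of 2 months. Xist, the RNA that coats the inactive X chromosome of females, had levels of -7.95, -0.34 and -7.87 at 12 months and -1.14 and -6.13 at 2 months. The probe was clear of background on 1 of 3 arrays of 12 months and 1 of 2 of 2 months, and the Y-linked Ddx3y ran the other way (0.90, -6.98 and 1.35 against -6.66 and 1.71). Both arrays of 2 months lay on 1 slide. Animal 641 lay on another slide, and animals 552 and 1110 shared a slide that was the only one scanned on the other of 2 scan days. No slide held wild-type liver of both ages, and that of 552 and 1110 held no other array without tumor. Slide and age can thus be told apart only for animal 641, through hemizygous and ko arrays.

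Of 26379 genes, 10 passed (0.0379%), 7 higher (0.0265%) and 3 lower (0.0114%) at 12 months. The higher ones with a symbol were the stress ligand Raet1e, the tubulin Tubb2a, the adhesion protein Lrfn3 and the transcription factor Dmrta1. The lower ones included the phosphodiesterase Gpcpd1 and the translation repressor Eif4ebp3. At an unadjusted p under 0.05, 2801 genes differed (10.6%), 1271 higher (4.82%) and 1530 lower (5.8%). The median of all changes was -0.03. The 3 arrays of 12 months lay wholly above the 2 of 2 months for 15.2% of genes and wholly below for 12.2%.

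**Figure D1:**
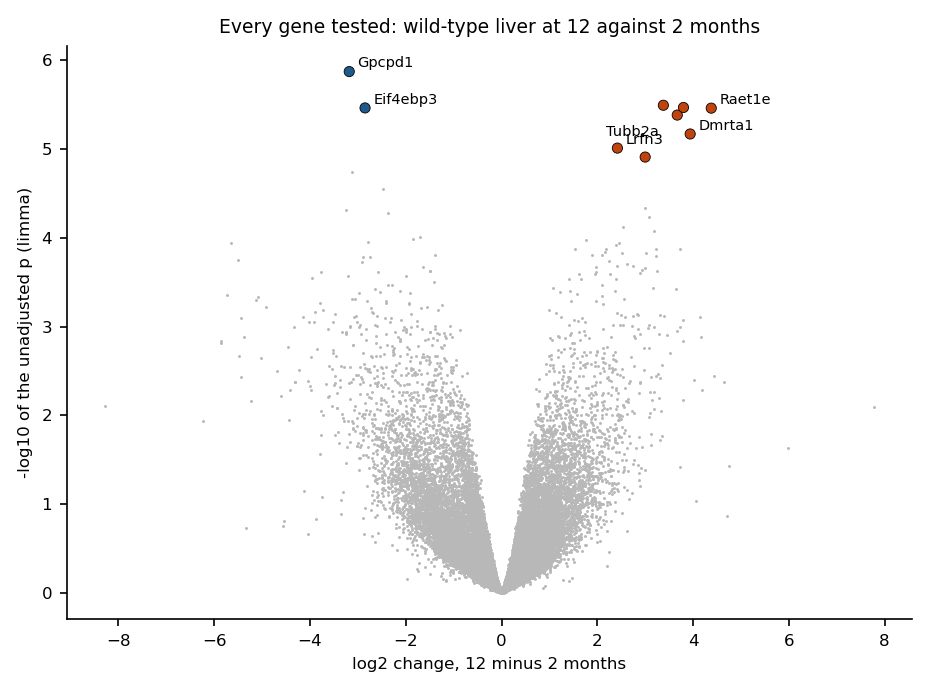
Change in wild-type liver at 12 minus 2 months (log2, x axis) against the -log10 of limma's unadjusted p (y axis) for the 26379 genes tested, each a grey dot. The 7 genes past the threshold as higher are red and 2 past it as lower are blue, and those of them with a symbol are named.

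Raet1e encodes a ligand of NKG2D, the receptor by which NK cells and some T cells recognise stressed cells. It lies on chromosome 10 (22158542 to 22189697) in a family of near-identical genes that 1 probe may not tell apart. Its levels were 2.03, 1.61 and 1.05 at 12 months and -3.04 and -2.58 at 2 months. The groups lay far apart, and the mean was 1.56 ± 0.49 (SD, n = 3) against -2.81 ± 0.33 (SD, n = 2). The change of 4.38 (SE 0.60, adjusted p = 0.0182) is 20.8-fold. A transcript without a symbol here, read by probe A_51_P256766 and named after its values were seen, had a like pattern, with 2.94, 3.08 and 2.42 against -0.73 and -0.42 (change 3.38, SE 0.46, adjusted p = 0.0182). A second probe of that transcript differed by 2.63.

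Tubb2a, a beta-tubulin of microtubules on chromosome 13 (34074278 to 34078008), had levels of 7.52, 5.96 and 6.82 at 12 months and 3.43 and 2.77 at 2 months. It rose by 3.67 (SE 0.51, adjusted p = 0.0182), or 12.7-fold, and 2 further probes differed by 3.78 and 2.87. Lrfn3, a leucine-rich repeat protein known from synapses (chromosome 7, 30355514 to 30362772), had 2.98, 3.56 and 3.83 against 1.01 and 1.06. It rose by 2.42 (SE 0.36, adjusted p = 0.0322), or 5.34-fold. Both genes were well above background on all 5 arrays. In neither did the ages overlap, which was a condition for naming genes by their p.

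The other 3 higher genes were dim in young liver. Dmrta1, of the doublesex family of transcription factors (chromosome 4, 89688198 to 89694766), had -3.48, -2.08 and -3.56 at 12 months. At 2 months it was not well above background on either array, with -6.95 and -7.00, so it was at least 5.36-fold higher (adjusted p = 0.0255). Probe A_52_P213483, which names no gene here, was at least 7.26-fold higher (-2.49, -2.08 and -3.23 against -6.44 and -6.37, neither well above background, adjusted p = 0.0182). Probe A_52_P638100 had -1.64, -1.70 and -2.29 against -5.33 and -4.43 (change 3.0, SE 0.45, adjusted p = 0.0361), and 1 of the 2 young arrays was well above background. Both probes were named after their values were seen.

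Gpcpd1 cleaves glycerophosphocholine, a product of phosphatidylcholine breakdown, into choline and glycerol phosphate (chromosome 2, 132529082 to 132578248). Its levels were 2.00, 1.33 and 1.54 at 12 months and 4.51 and 5.10 at 2 months. It fell by 3.18 (SE 0.40, adjusted p = 0.0182), a 9.07-fold difference, and 2 further probes differed by -3.19 and -2.99. Eif4ebp3, a protein of the family that holds back cap-dependent translation (chromosome 18, 36664060 to 36666324), had 1.58, 1.72 and 2.66 against 5.03 and 4.64. It fell by 2.85 (SE 0.39, adjusted p = 0.0182), and its second probe differed by -2.91. In neither gene did an array of 12 months reach the lowest array of 2 months, and such a gap was a condition for naming them.

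The hemizygous mice of 2 months give a second set of young livers, and set against them the arrays of 12 months differed in 7 of 26382 genes (0.0265%). Of the 10 genes, 5 passed there too: Raet1e at 3.74, Tubb2a at 3.39, Lrfn3 at 2.29 and probe A_51_P256766 at 3.01 as higher and Gpcpd1 at -2.56 as lower (adjusted p = 0.0306 each). Eif4ebp3 differed by -2.08 (adjusted p = 0.0753) and Dmrta1 by 2.30 (adjusted p = 0.121). Dmrta1 averaged -5.33 ± 0.33 (SD, n = 3) in hemizygous liver, below the wild-type arrays of 12 months. Wild-type arrays of 2 months were not well above background for it, so hemizygous and young wild-type liver cannot be ranked. These comparisons share the arrays of 12 months, so they are not independent of each other.

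Ko liver of 2 months lay near wild-type liver of 12 months in some of these genes and near that of 2 months in others. Gpcpd1 averaged 1.89 ± 0.07, Eif4ebp3 1.87 ± 0.19, Tubb2a 6.70 ± 0.05 and Lrfn3 3.33 ± 0.54 (SD, n = 3 each) in ko liver of 2 months. Wild-type means of 12 months were 1.62, 1.99, 6.76 and 3.46, and those of 2 months 4.81, 4.83, 3.10 and 1.04. Raet1e instead averaged -1.38 ± 1.25 in ko liver of 2 months (SD, n = 3), 1.30 at 8 months and 0.63 ± 0.58 at 12 months (SD, n = 4). Dmrta1 averaged -7.20, -6.82 and -7.67 in ko liver of 2, 8 and 12 months, and these means lay below every wild-type array of 12 months. The change with age itself did not pass as different between ko and wild-type liver for any of 26378 genes in limma (0%), where 2513 genes (9.53%) had an unadjusted p under 0.05. Gpcpd1 came nearest (difference 3.59, SE 0.52, adjusted p = 0.125), with a change of 0.41 in ko liver.

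**Figure D2:**
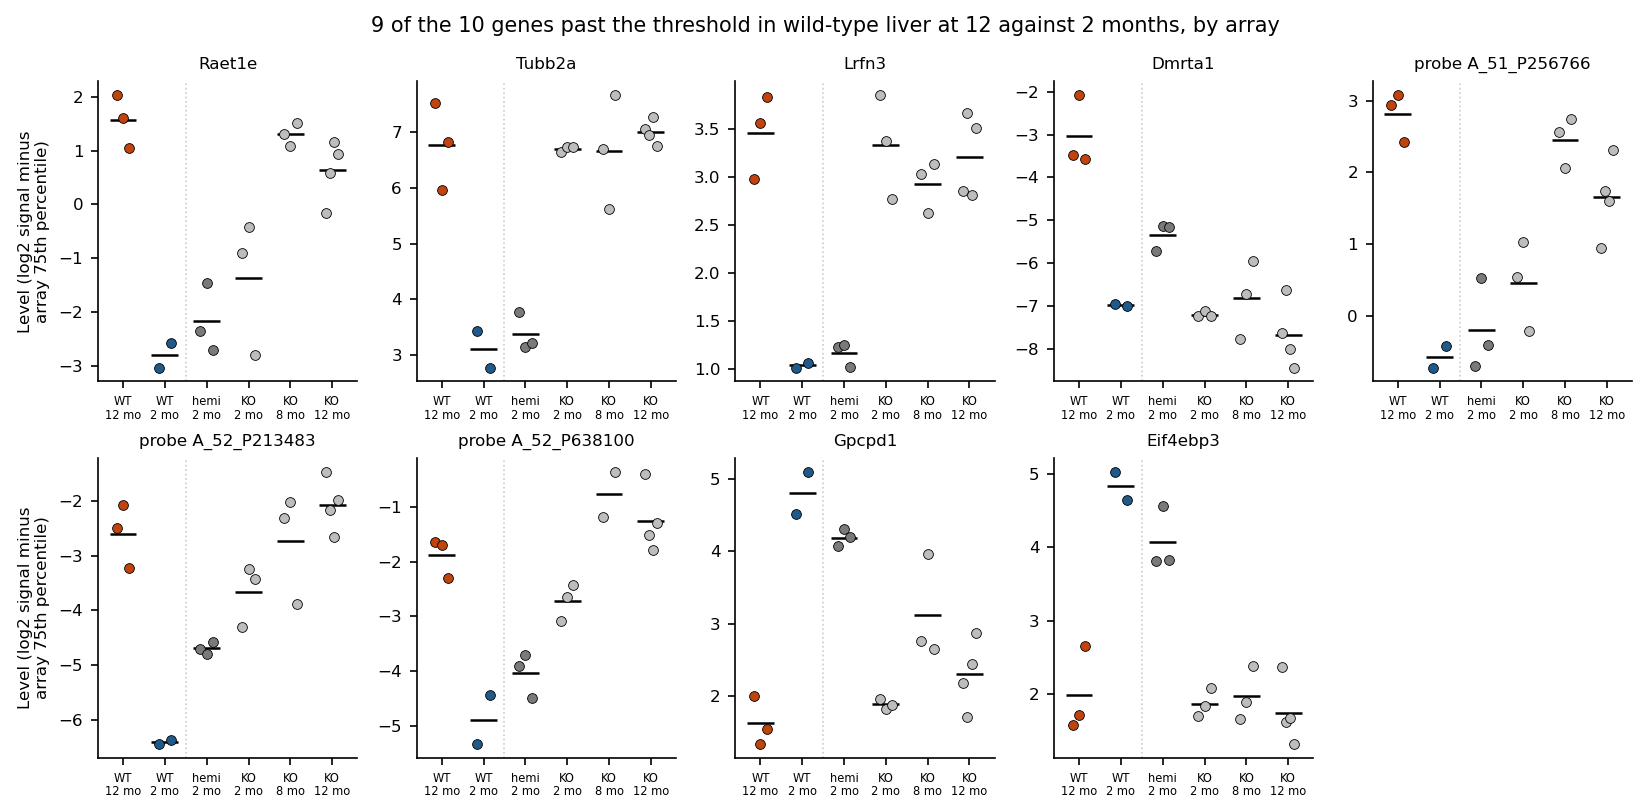
Level (log2 signal minus the 75th percentile of the array, y axis, a scale of its own in each panel) of 9 of the 10 genes past the threshold, 1 dot per array and a bar at the group mean. From left to right stand wild-type liver of 12 months (red, n = 3) and 2 months (blue, n = 2), hemizygous liver of 2 months (n = 3) and non-tumor ko liver of 2, 8 and 12 months (n = 3, 3 and 4). The wild-type ages do not overlap in any panel, which was a condition for naming the genes with a symbol. In Gpcpd1, Eif4ebp3, Tubb2a and Lrfn3 the ko arrays of 2 months sit near the wild-type arrays of 12 months.

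The count of 10 rested on the arrays used. It was 1 without wild-type 31, 0 without wild-type 34, 6 without hemizygous 30, 6 without ko 64, 31 without ko 934 of 8 months and 29 without ko 638 of 12 months. It was 0 with only the 5 wild-type arrays or with the slide as a random block. With the slide as a fixed block 107 genes passed, none of the 10 among them, and the median of all changes moved to 0.41. In that fit the comparison runs through the ko and hemizygous arrays that share a slide with animal 641 or with the young mice. With scan day as a block, which leaves 641 as the aged array to set against the young ones, 75 genes passed and 6 of the 10 remained (median of all changes 0.45). Those lost there included Tubb2a (adjusted p = 0.075), Lrfn3 (0.0573) and probe A_52_P638100 (0.0554). The changes of that fit are the differences of animal 641, scanned on the same day as the young mice, from their mean. They were 4.42 in Raet1e, 2.86 in Tubb2a, 2.52 in Lrfn3, 4.90 in Dmrta1, -3.47 in Gpcpd1 and -3.12 in Eif4ebp3. These 6 genes were named only because every aged array, 641 included, lay beyond both young ones. Their direction in 641 was thus fixed beforehand. With normexp background correction and quantile normalisation the changes were smaller in dim probes, 0.77 in Dmrta1, 0.75 in A_52_P213483 and 0.99 in A_52_P638100, and that of Raet1e was 2.89.

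Leaving out animal 641 had the largest effect of any array of the model on that count: 1642 genes then passed, 111 higher and 1531 lower, and all 10 genes were among them. The 1531 lower genes were dim. Their median level was -5.81 and -5.57 on the arrays of animals 552 and 1110, -2.46 on that of 641, and -3.06 and -2.80 at 2 months. Neither 552 nor 1110 was well above background for 52.6% of them, against 24.2% of all genes tested. The genes were chosen as lower on these same arrays, so part of that excess follows from the choice. For 941 of the 1531, animal 641 lay above both young arrays. The tumor array of ko 1347, on the same slide and scan day as 552 and 1110, had a median of -5.45 for these genes, and the other 6 tumor arrays had -5.09 to -3.87. Non-tumor ko liver had -3.41 to -3.25 at 2 months and -4.92 to -4.40 at 12 months. Age, slide, scan day and the single animal cannot be told apart for these genes.

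**Figure D3:**
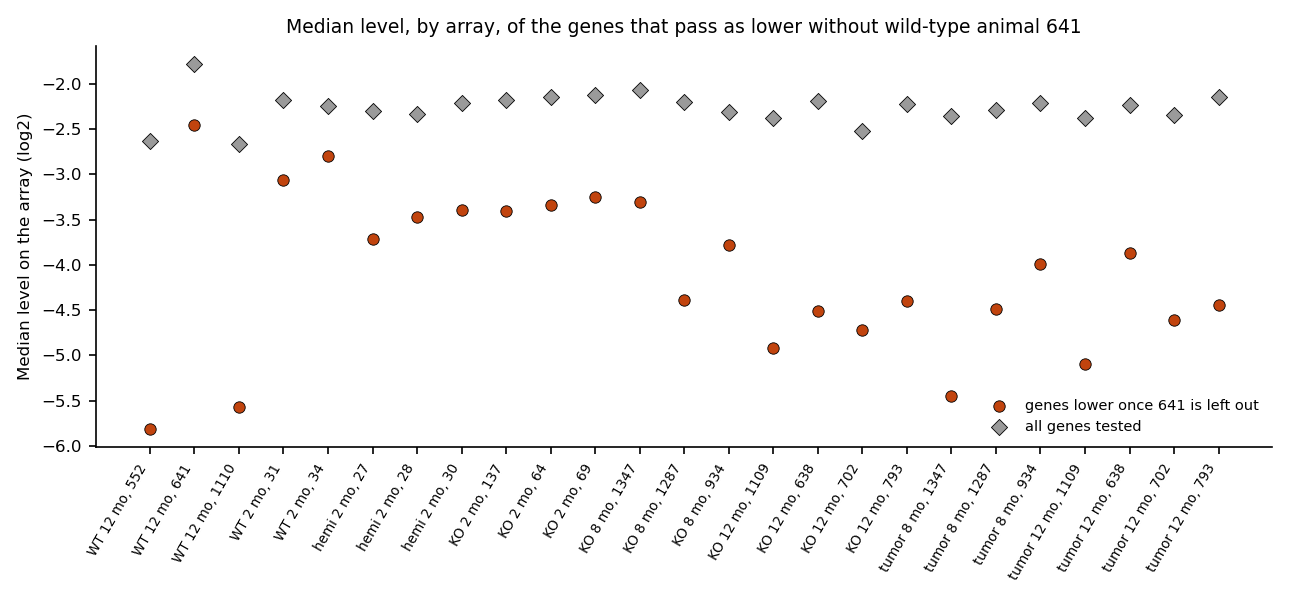
Median level (log2, y axis) on each of the 25 arrays (x axis, by group and animal) of the 1531 genes that pass as lower at 12 months once animal 641 is left out (red circles) and of all 26379 genes tested (grey diamonds). Among wild-type arrays of 12 months, 552 and 1110 sit at -5.81 and -5.57 and 641 at -2.46, above the young arrays at -3.06 and -2.80.

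Genes just short of the threshold, given by their values alone, included 6 more with higher and 7 more with lower levels at 12 months. Il1r1, the signalling receptor of interleukin 1, had 0.49, 0.00 and 1.03 at 12 months and 2.93 and 3.02 at 2 months (change -2.47, SE 0.41, adjusted p = 0.0674). Robo1, a receptor of Slit guidance proteins, had 0.22, -0.89 and -0.87 against -3.51 and -3.69 (change 3.09, SE 0.55, adjusted p = 0.102). Lgals1, galectin-1, which stromal and immune cells make in quantity, had 4.79, 3.87 and 3.82 against 1.13 and 0.82 (change 3.19, SE 0.59, adjusted p = 0.117). The ages did not overlap in these 3 genes, which was a condition for naming the genes of this paragraph. Tjp3, a scaffold of tight junctions, differed by 2.53, the protease Capn5 by 1.76 and the ubiquitin ligase Rnf25 by 1.54. Loxl3, a lysyl oxidase relative that was not well above background in young liver, was at least 4.84-fold higher (adjusted p = 0.0986). Map2k6, the kinase that activates p38, differed by -1.84, the F-box protein gene Fbxo31 by -1.65 and the RNA-binding protein gene Msi1 by -2.92. For Dennd3 and Cyren the probe used differed by -5.65 and -2.89 and another probe of the gene by 1.61 and 0.27, so their probes disagree.

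Genes of lipid droplets and of PPAR-gamma, the fat-cell regulator that also rises in fatty liver, were mostly higher at 12 months. Of 20 tested, 16 had a change above 0, where 48.3% of all genes did, and the median change was 1.61, against -0.03 over all genes. None passed the adjusted test, 7 were higher and 1 lower at an unadjusted p under 0.05 (4.82% and 5.8% of all genes), and 12 (60%) lay higher without overlap of the ages (15.2% of all genes). This list and those below were chosen with earlier results of these data known. Their shares beside those of all genes are therefore no test. Cd36, a fatty acid transporter, had 2.93, 2.37 and 1.70 at 12 months and 0.20 and -0.08 at 2 months (change 2.27, SE 0.47, adjusted p = 0.118). Pparg itself had 3.50, 2.43 and 2.92 against 1.54 and 1.09 (change 1.64, SE 0.42, adjusted p = 0.174). Plin2, the coat protein of hepatocyte lipid droplets, had 7.86, 8.42 and 7.65 against 6.28 and 6.82 (change 1.43, SE 0.40, adjusted p = 0.218). In each of these 3 genes the lowest aged array lay above the highest young one.

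Cidec and Cidea, which let droplets fuse and are abundant in fat cells, spread more widely between the aged animals. Cidec had 6.2, 1.89 and 3.98 at 12 months and 0.85 and 0.50 at 2 months (change 3.35, SE 1.24, adjusted p = 0.366). Cidea, named after its values were seen, had 6.75, -3.25 and 5.07 against -4.26 and -5.56 (change 7.77, SE 2.53, adjusted p = 0.298), so that animal 641 stayed close to the young mice. Mogat1, which makes diacylglycerol and was also named after its values were seen, had 1.51, -0.43 and 0.33 against -2.86 and -1.98 (change 2.88, SE 1.07, adjusted p = 0.369). Of the 20 members tested, 4 were below 0 and 2 (10%) lay lower without overlap, against 12.2% of all genes. Lpl, lipoprotein lipase, named after its values were seen, differed by -2.26 (SE 1.28, adjusted p = 0.549). Pnpla2, the lipase that starts the breakdown of stored triglyceride, had 3.71, 2.94 and 3.35 against 4.98 and 5.11 (change -1.71, SE 0.32, adjusted p = 0.117), and a second probe differed by -0.49. The median of the list was 1.44 with scan day as a block and 0.41 with the slide as a block, where the median of all changes was 0.41 too. Cidec differed by -0.94 with the slide as a block.

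Fat cells express several of these genes too, so their markers were read beside them. Of 9 adipocyte markers tested, 8 were above 0, with a median of 0.93. The mean level of the list was -0.33, -0.87 and -1.12 at 12 months and -2.67 and -1.98 at 2 months. Adipoq, the hormone that defines fat cells, was well above background on 1 of 3 arrays of 12 months and on neither of 2 months (-6.55, -3.48 and -6.67 against -6.91 and -7.45). Cfd, adipsin, had 2.30, -2.72 and 2.49 against -6.92 and -3.69 (change 5.99, SE 2.37, adjusted p = 0.392). The part of fat cells in the list was not tested.

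Other lipid pathways showed no common direction. Lipogenesis genes had a median change of 0.23, with 13 of 22 above 0. At an unadjusted p under 0.05, 2 were higher and 1 lower, against 4.82% and 5.8% of all genes. The 1 lower was Lpin1, a phosphatidate phosphatase and transcriptional co-regulator, with 4.54, 3.58 and 2.67 against 6.61 and 6.27 (change -2.84, SE 0.72, adjusted p = 0.174). Pnpla3, a lipase-like gene that insulin and SREBP-1c induce, had -0.94, -1.12 and -5.62 against -6.57 and -6.92 (change 4.19, SE 1.27, adjusted p = 0.257). It was well above background on 2 of 3 arrays at 12 months and on neither at 2 months, and animal 1110 lay near the young mice. Acly, which makes cytosolic acetyl-CoA, had 4.89, 3.72 and 3.26 against 2.67 and 2.12 (change 1.56, SE 0.61, adjusted p = 0.388). Cholesterol synthesis genes had a median of 0.26 (17 of 23 above 0), with Mvd at 1.68 (SE 0.69, adjusted p = 0.406), and fatty acid oxidation genes -0.02 (16 of 33 above 0). Within the last list, Pdk4, the kinase that turns pyruvate dehydrogenase off in fasting, had 1.47, 1.04 and 0.47 against -1.82 and -2.16 (change 2.98, SE 0.84, adjusted p = 0.217). Cpt1a, which admits fatty acids to mitochondria, had 5.29, 5.41 and 4.86 against 6.07 and 5.88 (change -0.79, SE 0.36, adjusted p = 0.453). With the slide as a block the medians of lipogenesis and cholesterol synthesis were -0.31 and -1.08.

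None of the 21 clock genes tested passed the adjusted test. BMAL1, encoded by Arntl, and CLOCK bind the E-box CACGTG and switch on the Per, Cry and Ciart repressors and output factors such as Dbp and Tef, and these output factors bind the D-box TTANGTAA. To show those elements, the 250 bases before the start site (RefSeq, GRCm38.p6, 5′ to 3′) are printed for 4 genes with matches that were lower at 12 months by their values and for Arntl, which was higher. Capitals mark the E-box and, in Per3, the D-box.
Ciart, chr3:95882229-95882478, minus strand: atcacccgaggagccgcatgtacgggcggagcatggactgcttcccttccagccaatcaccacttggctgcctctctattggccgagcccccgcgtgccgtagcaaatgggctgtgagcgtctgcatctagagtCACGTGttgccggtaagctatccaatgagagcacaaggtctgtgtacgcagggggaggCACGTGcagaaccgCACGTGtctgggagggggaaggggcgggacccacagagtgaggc
Per1, chr11:69098699-69098948, plus strand: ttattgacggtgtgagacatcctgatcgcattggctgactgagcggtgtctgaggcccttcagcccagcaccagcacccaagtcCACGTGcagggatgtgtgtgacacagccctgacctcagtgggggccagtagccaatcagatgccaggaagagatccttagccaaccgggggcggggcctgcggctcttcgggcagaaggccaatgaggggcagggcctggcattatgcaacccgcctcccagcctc
Tef, chr15:81802423-81802672, plus strand: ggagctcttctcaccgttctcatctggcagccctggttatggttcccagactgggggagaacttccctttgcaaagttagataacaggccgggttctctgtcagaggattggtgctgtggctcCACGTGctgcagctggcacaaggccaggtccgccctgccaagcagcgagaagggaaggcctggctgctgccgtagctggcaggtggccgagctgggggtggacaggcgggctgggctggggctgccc
Per3, chr4:151044666-151044915, minus strand: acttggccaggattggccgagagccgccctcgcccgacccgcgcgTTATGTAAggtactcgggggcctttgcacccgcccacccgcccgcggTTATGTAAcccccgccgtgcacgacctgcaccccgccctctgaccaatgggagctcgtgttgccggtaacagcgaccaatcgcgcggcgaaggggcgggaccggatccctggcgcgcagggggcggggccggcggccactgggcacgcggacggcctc
Arntl, chr7:113207215-113207464, plus strand: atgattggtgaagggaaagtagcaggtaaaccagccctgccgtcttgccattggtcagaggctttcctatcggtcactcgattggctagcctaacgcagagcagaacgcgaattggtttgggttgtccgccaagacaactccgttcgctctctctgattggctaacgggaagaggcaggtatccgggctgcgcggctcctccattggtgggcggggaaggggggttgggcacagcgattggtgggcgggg

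The E-box was found at -116, -58 and -44 in Ciart, at -166 in Per1 and at -127 in Tef, and the D-box at -205 and -158 in Per3, counted from the start site. Both motifs were searched on both strands of the 250 bases of 32851 RefSeq promoters, of which 6.02% held the E-box and 2.06% the D-box. Of 21 clock genes, 17 had an entry, 5 of them with an E-box and 1 with a D-box. Bhlhe41, at -153, and Cry1, at -60, also held an E-box and are not printed. The printed genes were picked by their values, so they show no link between motif and level. The Arntl window held neither motif. These matches describe the sequence and show no binding.

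Of the 13 clock repressors and output factors, 11 had a change below 0 at 12 months, and the median was -1.64. None passed the adjusted test, and 6 were lower at an unadjusted p under 0.05 (5.8% of all genes). Without overlap, 9 (69.2%) lay lower, against 12.2% of all genes. Usp2, a ubiquitin protease under clock control, had -0.15, -1.32 and -2.51 at 12 months and 3.02 and 2.97 at 2 months (change -4.32, SE 1.27, adjusted p = 0.236). Ciart, a repressor of BMAL1 and CLOCK, had -1.58, -5.67 and -7.68 against 1.31 and 1.21 (change -6.23, SE 2.16, adjusted p = 0.33), and was well above background on 1 of the 3 aged arrays. Tef, an output factor, had 2.87, 2.44 and 1.46 against 3.83 and 3.96 (change -1.64, SE 0.62, adjusted p = 0.376). Per1 had 0.75, 0.30 and -0.73 against 1.99 and 1.82 (change -1.80, SE 0.78, adjusted p = 0.436). In all 4 genes every aged array lay below both young ones, and 552 was the nearest to them and 1110 the farthest.

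Dbp, the most rhythmic output factor of liver, had 6.51, 5.14 and 0.34 at 12 months and 6.54 and 7.23 at 2 months (change -2.89, SE 1.86, adjusted p = 0.597), so animal 552 almost reached the young mice. Wee1, a kinase that delays mitosis, differed by -1.75 (SE 0.73, adjusted p = 0.409) and Per3, named after its values were seen, by -1.69 (SE 0.78, adjusted p = 0.466). Nr1d1, which encodes REV-ERB-alpha and was named in the same way, had 0.87, 1.25 and -0.43 against -0.91 and -0.63 (change 1.34, SE 1.42, adjusted p = 0.775). Arntl had -0.24, 0.78 and 2.33 against -2.41 and -2.72 (change 3.52, SE 0.93, adjusted p = 0.199), again with 552 nearest and 1110 farthest. Clock differed by 0.84 (SE 0.39, adjusted p = 0.47). The list that holds both genes and 6 further clock regulators had a median of 0, with 4 of 8 above 0. Hemizygous mice of 2 months lay with the young wild-type mice, with means of -2.04 in Arntl, 3.22 in Usp2 and 1.35 in Ciart, and ko mice of 2 months had 1.75, -1.37 and -4.02. The median of the repressors and output factors was -2.75 with the slide and -1.44 with scan day as a block. Age and the hour of collection cannot be told apart.

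Glucocorticoid-responsive genes, which also follow a daily rhythm, included several lower ones. Of 17 tested, 12 had a change below 0, with a median of -0.25. At an unadjusted p under 0.05, 4 were lower and 1 higher, against 5.8% and 4.82% of all genes. Fkbp5, a co-chaperone of the glucocorticoid receptor and among its strongest targets, had -0.58, 0.16 and -1.05 at 12 months and 2.91 and 1.41 at 2 months (change -2.65, SE 0.58, adjusted p = 0.141). Tsc22d3, which encodes the glucocorticoid-induced leucine zipper GILZ, had 2.21, 2.73 and 2.34 against 3.81 and 4.06 (change -1.51, SE 0.42, adjusted p = 0.216). Tat, tyrosine aminotransferase, had 7.38, 7.09 and 7.64 against 8.07 and 8.51 (change -0.92, SE 0.35, adjusted p = 0.387). In these 3 genes the ages did not overlap.

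**Figure D4:**
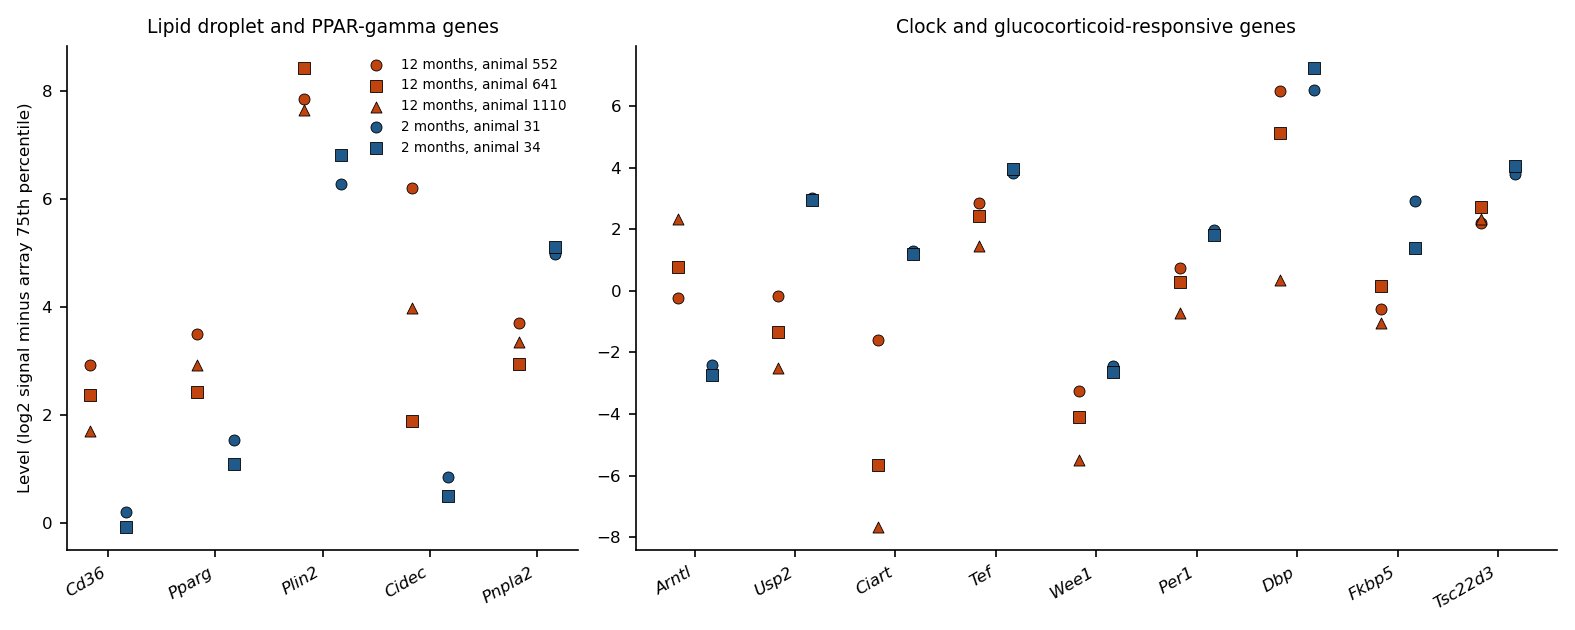
Level (log2 signal minus the 75th percentile of the array, y axis) of 5 lipid droplet and PPAR-gamma genes (left) and 9 clock and glucocorticoid-responsive genes (right) on each wild-type array, with 12 months in red, left of 2 months in blue, and 1 marker shape per animal. The ages overlap in none of these 14 genes, and Cidec, Ciart and Dbp spread most between the aged animals.

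Genes of antigen presentation on MHC class II, made by dendritic cells, B cells and macrophages, all had changes above 0. The median of the 10 tested was 1.31, 4 were higher at an unadjusted p under 0.05, against 4.82% of all genes, and 5 (50%) lay higher without overlap, against 15.2%. Cd74, the invariant chain, had 4.52 and 3.92 at 12 months and 2.31 and 2.33 at 2 months (change 1.90, SE 0.65, adjusted p = 0.337). Its spot on the array of animal 1110 carried an outlier mark, so that array was dropped for this gene. The mean level of the list was 0.46, 0.21 and -1.65 at 12 months and -1.30 and -1.30 at 2 months. Animal 1110 thus did not lie above the young mice, though its mean lacks Cd74 and so rests on fewer genes. Ciita, the master activator of these genes, had -1.19, -1.33 and -2.56 against -2.70 and -3.47 (change 1.39, SE 0.61, adjusted p = 0.436). H2-DMb2, which helps to load peptides, had -0.65, -1.33 and -2.67 against -2.99 and -3.04 (change 1.46, SE 0.59, adjusted p = 0.402). In Ciita and H2-DMb2 animal 1110 lay nearest to the young mice. The median of the list was 1.53 with scan day and 0.47 with the slide as a block, where Cd74 differed by -0.13.

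Chemokines and cytokines had a median change of 0.64, with 24 of 31 above 0, 5 higher and 1 lower at an unadjusted p under 0.05 (4.82% and 5.8% of all genes), and 11 (35.5%) higher without overlap (15.2% of all genes). The mean level of the list was -1.79, -1.51 and -2.85 at 12 months and -2.72 and -2.57 at 2 months, so animal 1110 lay below both young mice. Ccl2, which draws monocytes into tissue, had 0.15, 0.24 and -1.46 at 12 months and -3.68 and -3.63 at 2 months (change 3.30, SE 0.77, adjusted p = 0.168). Il1b, the cytokine interleukin 1 beta, had -1.43, -0.91 and -2.46 against -4.13 and -3.55 (change 2.24, SE 0.63, adjusted p = 0.217), beside the lower level of its receptor gene Il1r1 given above. Ccl4 differed by 2.22 (SE 0.68, adjusted p = 0.262), and Ccl3, not well above background in young liver, was at least 2.85-fold higher (adjusted p = 0.279). Without animal 641 the median of the list was 0.27.

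Markers of the cells that make these proteins moved to different degrees. Neutrophil markers had a median of 1.2 (11 of 12 above 0), but only 3 of the 12 were well above background on all 5 arrays. Their mean level was -4.30, -1.84 and -4.53 at 12 months and -4.70 and -5.28 at 2 months. It was highest in animal 641, on whose array dim probes were brighter in general. S100a9, a subunit of the neutrophil protein calprotectin, had 0.29, 1.99 and -0.59 against -3.15 and -2.19 (change 3.24, SE 0.67, adjusted p = 0.118). S100a8, its partner, was well above background on 2 of 3 aged arrays and on no young one. It had -3.20, -1.58 and -4.97 against -6.41 and -6.90 (change 3.40, SE 0.80, adjusted p = 0.168). Without animal 641 the median of the neutrophil list was 0.43, and with scan day as a block it was 3.50. Macrophage and Kupffer cell markers had a median of 0.08 (13 of 24 above 0), which was -0.05 without 641 and -0.31 without 552. Among them the monocyte receptors Ccr2 and Cx3cr1 differed by 1.60 (SE 0.74, adjusted p = 0.466) and 1.64 (SE 0.78, adjusted p = 0.474).

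T and NK cell markers had a median of 0.61 (16 of 20 above 0), and none of the 20 lay apart without overlap in either direction. That median was 0.14 without animal 641. B and plasma cell markers had a median of 0.70 (9 of 15 above 0), which was 0.21 without 641. Jchain, which joins secreted IgM and IgA, had 0.50, 0.69 and -0.14 at 12 months and -2.82 and -2.85 at 2 months (change 3.18, SE 0.98, adjusted p = 0.262). Ms4a1, which encodes the B cell antigen CD20, had -2.29, -1.92 and -3.97 against -4.51 and -5.02 (change 2.04, SE 0.73, adjusted p = 0.354). Both lay higher on all 3 aged arrays. Sdc1, a plasma cell marker that hepatocytes also express, differed by 1.04 (SE 0.42, adjusted p = 0.40).

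Stellate cells, the pericytes of liver that turn into matrix-forming myofibroblasts after injury, had markers with a median change of 0.61 (17 of 22 above 0), 5 higher and none lower at an unadjusted p under 0.05 (4.82% and 5.8% of all genes), and 7 (31.8%) higher without overlap (15.2% of all genes). Their mean level was 1.60, 1.32 and 0.43 at 12 months and 0.62 and 0.53 at 2 months, with animal 1110 below both young mice. Acta2, the smooth muscle actin of activated stellate cells, had 2.46, 2.49 and 3.15 at 12 months and 1.38 and 1.01 at 2 months (change 1.5, SE 0.41, adjusted p = 0.214). Ngfr, a neurotrophin receptor, had 1.08, 1.11 and 0.04 against -1.03 and -0.82 (change 1.67, SE 0.56, adjusted p = 0.318). The filament protein gene Des differed by 1.29 (SE 0.46) and the globin Cygb by 1.16 (SE 0.42), with adjusted p = 0.349 and adjusted p = 0.354. Collagens did not share this pattern: Col1a1 had 2.27, 0.20 and -0.87 against 1.11 and 1.19 and Col3a1 3.22, 1.64 and 0.69 against 2.25 and 2.34. The ages overlapped in both. The list of collagen and matrix genes had a median of 0.27 (15 of 26 above 0), which was -0.24 with the slide as a block. Timp1, the inhibitor of matrix proteases, differed by -0.79 (SE 0.46, adjusted p = 0.561). Acta2 differed by -0.23 with the slide as a block.

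Of 22 endothelial markers 20 were above 0 (median 0.42), against 48.3% of all genes, and 9 (40.9%) lay higher without overlap, against 15.2%, but none reached an unadjusted p under 0.05. Pecam1 differed by 0.76 (SE 0.40, adjusted p = 0.512) and Stab1, of the sinusoidal scavenger cells, by 0.53 (SE 0.29, adjusted p = 0.54). Against hemizygous liver of 2 months the median of the list was -0.03. Cholangiocyte markers, of bile duct cells, had a median of 0.48 (11 of 16 above 0), which was -0.04 without animal 641. The keratin Krt7 had -3.30, -2.33 and -3.18 against -4.02 and -4.64 (change 1.39, SE 0.44, adjusted p = 0.28), while Cdh1, E-cadherin, had -1.43, -0.79 and 0.73 against 1.78 and 2.02 (change -2.40, SE 1.01, adjusted p = 0.419). Hepatocytes around the portal tract express Cdh1 as well.

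**Figure D5:**
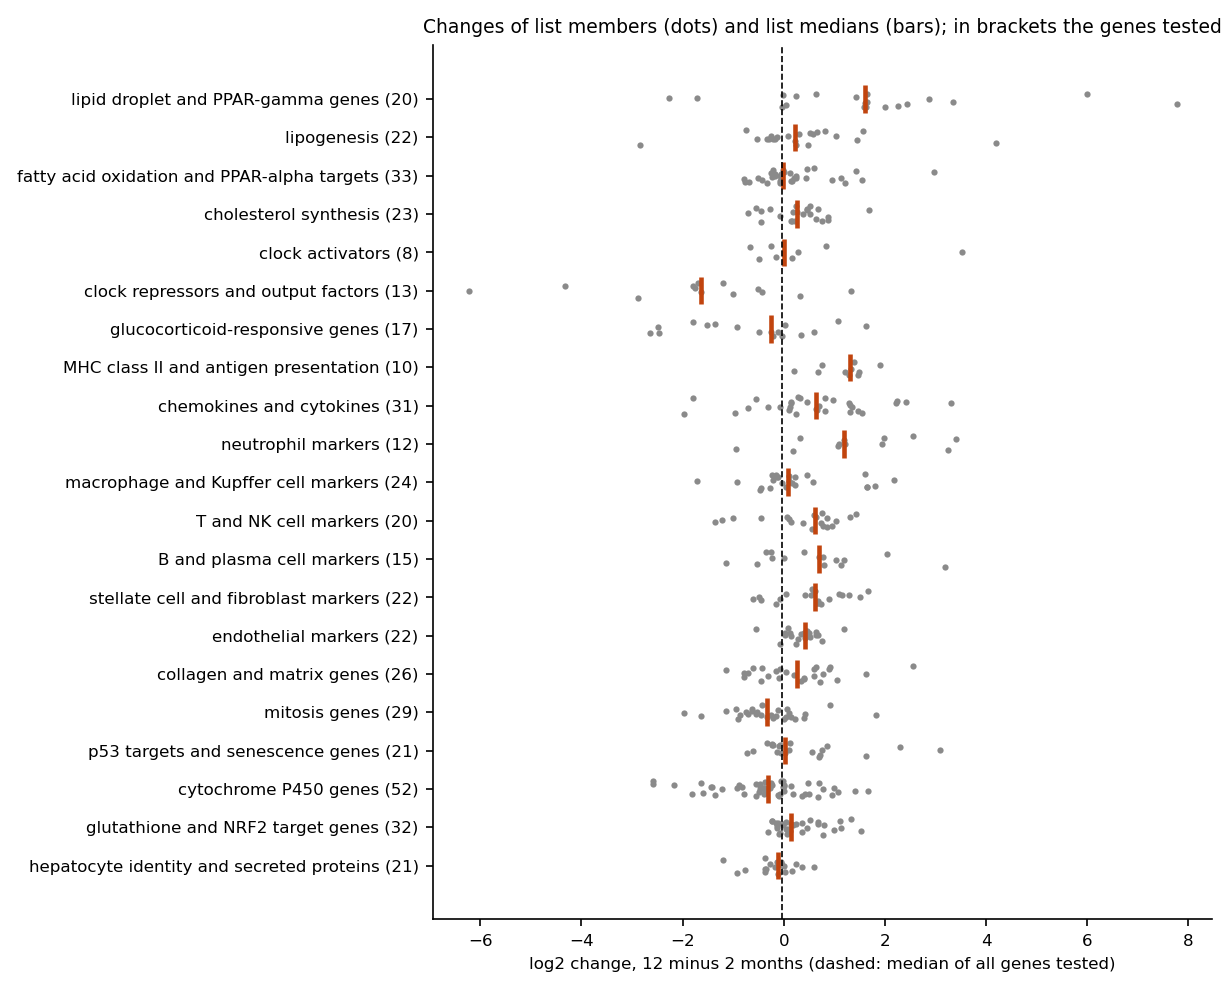
Change at 12 minus 2 months in wild-type liver (log2, x axis) of the members of 21 gene lists, 1 dot per gene, with the median of each list as a red bar and the median of all genes tested, -0.03, as a dashed line. The medians of lipid droplet and PPAR-gamma genes (1.61), MHC class II genes (1.31) and neutrophil markers (1.2) lie farthest above that line, and that of clock repressors and output factors (-1.64) farthest below it. Of the 12 neutrophil markers, 3 were well above background on all 5 arrays.

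Mitosis genes had a median change of -0.33 (20 of 29 below 0), with 1 lower and none higher at an unadjusted p under 0.05 (5.8% and 4.82% of all genes). Their mean level was -2.96, -2.56 and -4.80 at 12 months and -3.10 and -3.16 at 2 months. Cenpa, the histone that marks centromeres, had -3.32, -3.57 and -4.12 against -1.68 and -1.70 (change -1.98, SE 0.59, adjusted p = 0.239). S phase genes had a median of -0.27 (19 of 27 below 0). Ccne1, the cyclin that starts DNA replication, had -1.5, -2.33 and -2.59 against 1.13 and 1.28 (change -3.34, SE 0.83, adjusted p = 0.17). In both genes all aged arrays lay below the young ones. The median of mitosis genes was 0.38 with scan day as a block and 0.46 without animal 1110, so its direction rested on that array.

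P53 targets and senescence genes had a median of 0.02 (11 of 21 above 0), with 2 higher at an unadjusted p under 0.05 (4.82% of all genes). Gdf15, a stress hormone, had 3.10, 3.10 and 2.74 at 12 months and -0.30 and 0.09 at 2 months (change 3.09, SE 0.80, adjusted p = 0.19). Cdkn1a, the cell cycle inhibitor p21, had -1.69, -0.11 and -0.33 against -1.46 and -3.24 (change 1.63, SE 0.71, adjusted p = 0.436), with overlap of the ages. Cdkn2b, the inhibitor p15, was not well above background in young liver and was at least 4.91-fold higher (adjusted p = 0.483). Cdkn2a, of p16 and p19Arf, was not well above background on any of the 5 arrays. Among fetal and growth-related genes (median 0.11, 11 of 18 above 0), Igf2bp3, an mRNA-binding protein of fetal liver, had -7.86, -5.36 and -7.94 against -2.87 and -3.31 (change -3.96, SE 0.83, adjusted p = 0.123). Of the 3 aged arrays, 1 was well above background for it. Afp had -1.2, -3.04 and -2.47 against -0.78 and -0.38 (change -1.66, SE 0.76, adjusted p = 0.461).

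Markers of hepatocyte identity had a median of -0.12 (16 of 21 below 0), and Alb had 10.25, 9.55 and 10.40 at 12 months and 9.90 and 10.20 at 2 months. The mean level of that list was 7.96, 7.72 and 8.28 against 8.06 and 8.29, and all 5 arrays thus carried the hepatocyte transcripts of the labelled tissue. Cytochrome P450 genes had a median of -0.31 (35 of 52 below 0), 5 lower and 3 higher at an unadjusted p under 0.05, where 5.8% and 4.82% of all genes were lower and higher. The mean level of the list was 4.05, 4.26 and 4.2 at 12 months and 4.68 and 4.32 at 2 months. Cyp3a11, a main drug-metabolising enzyme, had 8.70, 8.30 and 8.08 against 7.73 and 6.83 (change 1.08, SE 0.34, adjusted p = 0.27). Cyp39a1, an oxysterol hydroxylase of bile acid synthesis, had 1.86, 2.06 and 1.63 against 3.83 and 3.08 (change -1.60, SE 0.52, adjusted p = 0.293). Bile acid genes had a median of -0.18 (16 of 26 below 0), with the sterol exporter Abcg5 at -1.16 (SE 0.46, adjusted p = 0.389). Glutathione and NRF2 target genes had a median of 0.14 (21 of 32 above 0) and 4 higher at an unadjusted p under 0.05 (4.82% of all genes). Gclc, the rate-limiting enzyme of glutathione synthesis, had 5.78, 5.19 and 5.88 against 4.17 and 4.40 (change 1.33, SE 0.34, adjusted p = 0.171). The median of that list was -0.19 with scan day and -0.39 with the slide as a block.

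Sex-biased and growth hormone genes have to be read beside the sex transcripts, which differ between animals of one age. Male-biased liver genes had a median of -0.70 (14 of 17 below 0), with mean levels of 3.92, 2.28 and 5.41 at 12 months and 3.99 and 5.21 at 2 months, lowest in animal 641. Female-biased genes had a median of 0.14, with 0.40, 4.28 and -0.61 against 2.97 and -0.06. Both Xist-positive animals, 641 and 31, held the higher means of female-biased genes. Hsd3b5, a male-specific steroid enzyme, had -1.37, -3.81 and 6.12 against 2.87 and 5.85, and thus a low value also in animal 552, in which Xist was not well above background. Genes of the growth hormone and IGF axis had a median of -0.03 (10 of 20 above 0). Stat5a, which carries the growth hormone signal, had 0.85, 1.35 and 1.2 against -0.55 and -0.70 (change 1.76, SE 0.47, adjusted p = 0.199). Igfbp2 had 4.71, 5.78 and 6.65 against 7.38 and 7.23 (change -1.59, SE 0.58, adjusted p = 0.357), and Igf1, the main liver product of this axis, differed by -0.42 (SE 0.34, adjusted p = 0.687). With the Xist level as a covariate 18 genes passed, and all 10 of the genes above were among them.

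Markers of tissues next to the liver were checked for carry-over at dissection. Exocrine pancreas markers had a median of -1.17 (13 of 15 below 0), with mean levels of -5.65, -2.80 and -5.58 at 12 months and -3.35 and -3.82 at 2 months, so animal 641 lay above the young mice. With scan day as a block that median was 1.04, and with the slide 0.87. Mesothelial markers, of the liver capsule, had a median of 1.17 (6 of 7 above 0) and mean levels of -2.78, -3.30 and -3.48 against -3.81 and -4.61, and the median was -0.88 with the slide as a block. Erythroid markers had a median of 0.17 and muscle markers 0.04, with 5 of 9 and 7 of 11 above 0. Of the 15 pancreas markers 4, and of the 7 mesothelial markers 3, were well above background on all 5 arrays. Both lists thus rest largely on dim probes, which were brighter on the array of animal 641. The part of these cells in the results was not tested.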

How the data were processed

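RNA of whole liver was hybridised to 1-colour Agilent mouse arrays. The deposited array files hold background-subtracted intensity values per spot from Feature Extraction 10.5.1.1, per the file headers; the submitters' processing notes name limma. The deposited series matrix holds log2 values whose normalisation is not given in the sources used here. Its column medians were 6.56 to 6.58, and it served as an alternative.

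Control spots and outlier-marked spots were left out, spots of a probe averaged, and log2 signals scaled by the 75th percentile of each array. The probe with the highest mean signal stood for a gene. Of 41174 probes, 24375 had a symbol. Genes well above background on at least 2 of 18 arrays were tested with limma 3.58.1 in R 4.3.3 (lmFit and eBayes) and adjusted by Benjamini and Hochberg. The normexp alternative (offset 50) used median spot signals, since the files hold no mean signals. The steps were tested on simulated data. The number of arrays limits the precision: an exact permutation test of 3 against 2 arrays cannot give a p under 0.1.

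Members and the 38 gene lists described were chosen with earlier results of these data known. Named genes were Mcl1 and Xist, up to 15 genes each way past the threshold with a symbol, without overlap of the ages and clear of background throughout the group with the higher level, filled up to 10 with the next by p, up to 4 genes of smallest p per list, and a fixed panel. Per3, Nr1d1, Cidea, Mogat1, Lpl and the probes without a symbol were named after their values were seen. H19, Mki67, Ccnd1, Ighm and Igkc of that panel were not analysed here, and 1 of the genes past the threshold is not reported here. A fold against a group not well above background is a bound, given only where all arrays of the higher group were well above background. Per array it takes the lowest signal among probes well above background or, where higher, the dim probe's own signal.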

Additional observations from a re-analysis of the deposited data

How the results depend on the processing

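The count of 10 genes (7 higher, 3 lower) was 30 with normexp and quantile normalisation (21 lower), 62 with quantile normalisation alone (34 higher, 28 lower), 24 with the series matrix values (14 lower), and 27 with a filter on every array (15 higher, 12 lower). It was 42 with limma's trend and robust options (23 higher, 19 lower), 6 with all 25 arrays (4 higher), and 18 with the Xist level as a covariate (13 higher, 5 lower). It was 0 with the 5 wild-type arrays alone, with or without Xist, where 2246 and 2808 genes had an unadjusted p under 0.05, and 0 with the slide as a random block, where 2012 did. The slide as a fixed block gave 107 (98 higher, 9 lower) and scan day 75 (71 higher). The hemizygous mice as the young group gave 4 higher genes, and both young groups together, chosen after seeing the data, 176 (76 higher, 100 lower). Leaving out 1 array gave 0 to 1642 genes, 0 to 111 higher and 0 to 1531 lower. The difference of age effects gave 8 genes with normexp, 1 with quantile normalisation, 2 with the series matrix, 1 with the filter on every array, 1 with trend and robust, 155 with scan day as a block, and 0 to 269 without 1 array. It was not run with the slide as a fixed block or with 5 arrays, where it cannot be estimated.

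Of 103 single genes, 84 kept their direction in every setting run. The slide as a fixed block turned Acly to -0.97, Mvd to -1.99, Cd74 to -0.13, Sdc1 to -0.83, Acta2 to -0.23, Hsd3b5 to 0.78, Cidec to -0.94, Oasl1 to -0.25, Cidea to 0 and Nr1d1 to -0.80. Scan day as a block turned Mcl1 to -0.38, Xist to 3.30, Ddx3y to -4.50, Cdkn2a to 0.21 and Alb to -0.50. Cdkn2a was at 0.07 and Alb at -0.04 with normexp, 0.19 and -0.06 with quantile normalisation, and 0.30 and -0.05 with the series matrix. The mean of all probes put Mcl1 at -0.21 and Timp1 at 1.42. Xist as a covariate put Ddx3y at -1.39, and in the 5 arrays alone Ddx3y at -1.23, Mcl1 at -0.12 and Alb at -0.14. Against hemizygous mice Pecam1 was at -0.03 and Cdkn2a at 0.76, and against both young groups Cdkn2a was at 0.26. Without 1 array Mcl1 ranged from -0.21 to 0.26, Alb from -0.15 to 0.28, Ddx3y from -3.29 to 5.09, Cdkn2a from -0.59 to 0.12, Xist from -4.27 to 0.75, Col1a1 from -1.48 to 0.09 and Col3a1 from -1.13 to 0.14. The cause was not tested. No paired analysis was possible because the compared groups hold different animals and share no replicate number.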

Other observations

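Genes of the BCL-2 family, to which Mcl-1 belongs, had a median change of 0.17 at 12 months (12 of 17 above 0). At an unadjusted p under 0.05, 2 were higher and 1 lower (4.82% and 5.8% of all genes), and none passed limma's adjusted test. Bnip3, which marks mitochondria for removal, had 5.23, 5.05 and 4.89 at 12 months and 6.16 and 6.02 at 2 months (change -1.03, SE 0.26, adjusted p = 0.171). Bid, a messenger between death receptors and mitochondria, had 0.71, 0.87 and 0.86 against -0.52 and 0.30 (change 0.93, SE 0.37, adjusted p = 0.397). Bcl2a1b, an anti-apoptotic gene of blood cells with close copies, had -0.17, -0.42 and -2.31 against -2.94 and -2.96 (change 1.98, SE 0.82, adjusted p = 0.409). The ages did not overlap in these 3 genes.

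Immediate early genes, which respond within minutes to stress or growth factors, ran in both directions (median 0.44, 12 of 18 above 0, none past the adjusted test). Junb had 3.54, 3.70 and 4.15 against 6.05 and 6.82 (change -2.63, SE 0.67, adjusted p = 0.18). Fos was not well above background on either wild-type array of 2 months and was at least 4.96-fold higher (adjusted p = 0.435). Against hemizygous liver of 2 months it differed by 0.54 (adjusted p = 0.926). Interferon response genes had a median of -0.15 (16 of 28 below 0). Within them Usp18, which damps interferon signalling, had 0.58, 1.22 and -0.58 against 2.02 and 2.22 (change -1.71, SE 0.47, adjusted p = 0.214), and Oasl1 had 2.28, 2.22 and 1.62 against 0.77 and 1.21 (change 1.05, SE 0.40, adjusted p = 0.376). Periportal genes had a median of -0.22 (11 of 16 below 0), with the glutamine transporter gene Slc38a2 at 3.77, 4.34 and 4.40 against 5.18 and 5.66 (change -1.25, SE 0.37, adjusted p = 0.247).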
